A study of Drosophila melanogaster with 12 samples.

Results

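Basement membranes are thin sheets of extracellular matrix that line the base of epithelia and wrap muscle, fat body, glia and the nervous system of the fly. Their framework is a network of collagen IV, whose α1 and α2 chains are encoded by Col4a1 and vkg (viking), and a network of laminin, a trimer of an α, a β and a γ chain; nidogen (Ndg) binds laminin and collagen, and perlecan (trol) adds heparan sulfate. SPARC is a secreted calcium-binding glycoprotein that binds collagen IV. In Drosophila, hemocytes (blood cells) and the fat body are known sources of collagen IV. The genes described here are those of 8 listed symbols, Col4a1, vkg, SPARC, LanA, LanB1, LanB2, trol and Ndg, that could be matched by FlyBase identifier to a row of the expression table. A row was found for 6 of the 8, among 11236 genes in all; LanB2, a laminin γ chain, and trol were not analysed here. All 6 genes passed the filter on low values, a mean of at least 10 over the libraries.

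The material was heads of virgin Drosophila melanogaster, 4 days old. The flies came from 3 populations kept for 117 generations under enforced monogamy and 3 kept under polygamy, and all populations were first reared for 1 generation in a common environment and then held in same-sex groups. One library was made per population and sex, which gives 4 groups of 3 libraries: monogamous males, polygamous males, monogamous females and polygamous females. The unit of replication is the population, and the number of flies pooled for a library is not known from the labels. The purpose of the design was to compare gene expression between the mating systems and between the sexes.

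The libraries held 34558521 to 52282995 recovered reads, and every value below is a deposited normalised read count unless said otherwise. The lowest count behind any value of the 6 genes was 420 reads. The head tissue showed in the eye markers, whose 8 genes made up at least 7.68% of the signal in each group's mean. One library stood apart, that of the females of monogamous population 1: it lay at 82.6 on the first principal component of all tested genes, against -24.6 to 16.3 in the other 11 libraries. Its 10 neuron marker genes summed to 59169, the lowest of all 12 libraries. For the 6 genes, values without it are given beside the results in which it enters a compared group. For the sex difference over all populations such a value is given for Ndg alone. Differences are monogamous minus polygamous or male minus female on the scale of log2(value + 1), tested with limma over all 10568 genes that passed the filter; a gene is called when its Benjamini-Hochberg adjusted p is under 0.05.

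Levels per kilobase of exon placed SPARC far above the other members. Its value per kilobase averaged 9888 over the 12 libraries, above that of 97.0% of the 10782 genes with a known exon length. Col4a1 averaged 1442 per kilobase and vkg 732, above 79.5% and 62.7% of genes. LanB1, the laminin β chain, averaged 265 per kilobase and Ndg 236, a pair whose order changed between groups: LanB1 per kilobase lay above Ndg in all 6 male libraries, and below it in all 3 monogamous female libraries. LanA, a laminin α chain, was the lowest at 78.9 per kilobase, above 22.5% of genes. Exon lengths came from a later annotation than the one the authors used. In that annotation the exons of Ndg share 158 bases with CG34222 on the opposite strand, and the strand setting of the counting is not stated, so some reads of Ndg and CG34222 cannot be told apart. The other 5 genes share no exon bases with another gene. Col4a1 and vkg are neighbours transcribed away from each other, with 0 genes between them.

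**Figure D1:**
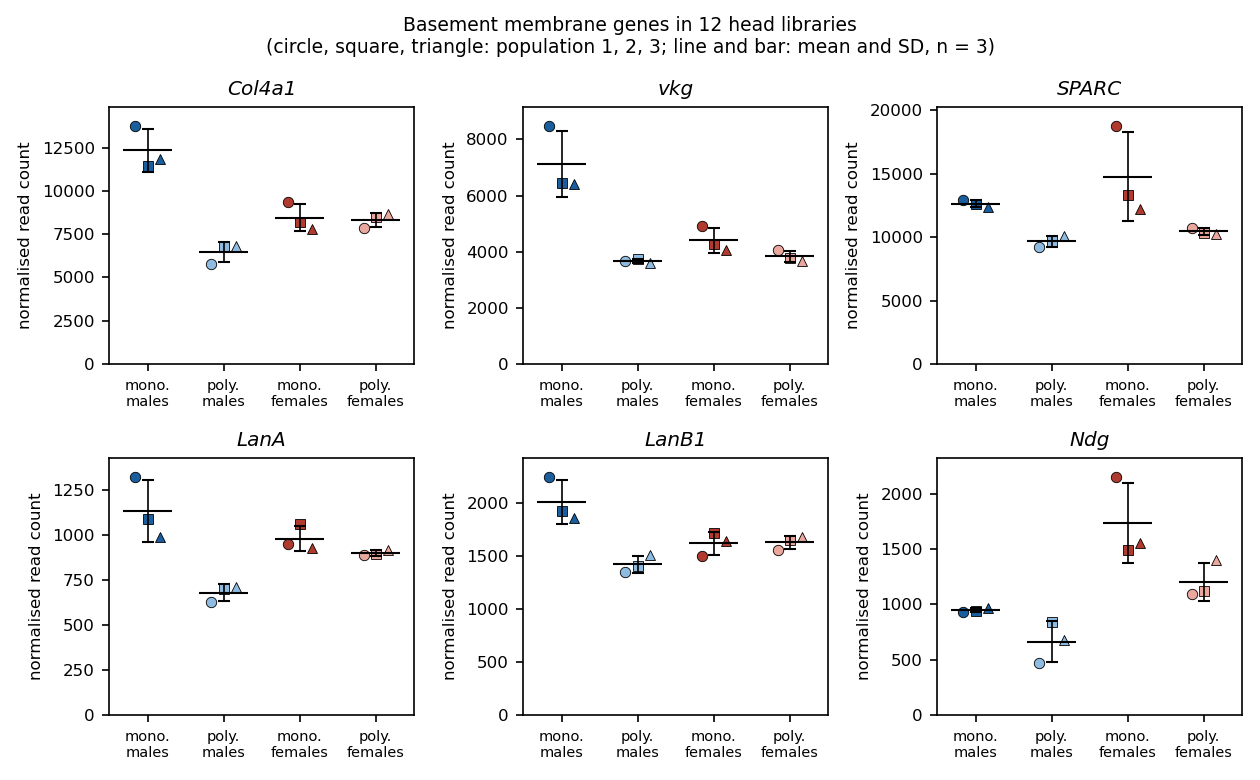
Normalised read counts of the 6 basement membrane genes (vertical axes, from 0) in the 12 head libraries, by group; points are libraries, lines and bars are the mean and SD of 3 libraries. Monogamous males lay above polygamous males in all 6 panels, whereas for Col4a1, vkg and LanB1 the monogamous and polygamous females overlapped.

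In male heads, the collagen IV genes and the laminin genes LanA and LanB1 were higher under monogamy. Col4a1 and vkg were about 1.91-fold and 1.92-fold higher, LanA 1.66-fold and LanB1 1.41-fold, and these 4 of the 6 members were called higher, against 0.539% of all tested genes. None was called lower. Without the monogamous female library of population 1, 5 of the 6 were called higher, against 4.62% of tested genes. In RNA of whole heads, fewer cells of a type and less RNA per cell cannot be told apart. In all 6 members every monogamous male library lay above every polygamous male library, which was so for 13.7% of tested genes. The median difference of the 6 members was 0.64, against -0.02 over all tested genes. The 6 members together summed to between 34418 and 39634 in monogamous males, against 21123 to 23392 in polygamous males.

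Col4a1, the collagen IV α1 chain, had 13739, 11424 and 11823 in the heads of monogamous males of populations 1 to 3, against 5787, 6762 and 6805 in polygamous males. The lowest monogamous library was well above the highest polygamous one, and monogamous males averaged 12329 ± 1238, against 6451 ± 575 for polygamous males (SD, n = 3 each). The log2 difference was 0.93 (SE 0.10), with a limma adjusted p of 0.0058; it was the 6th smallest p of the 10568 genes.

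The α2 chain gene, vkg, showed the same order of groups. Monogamous males had 8479.6, 6451 and 6429.9, against 3653, 3748 and 3609.85 in polygamous males. The first monogamous library stood above the other two, with a group mean of 7120.2 ± 1177, while the 3 polygamous libraries lay close together, with a mean of 3670.4 ± 70.7 (SD, n = 3 each). The log2 difference of vkg was 0.94 (SE 0.11; limma adjusted p = 0.0098), next after Col4a1 in the order of p.

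LanA, which encodes a laminin α chain, had 1322, 1087 and 986 in monogamous males, against 627, 699 and 711 in polygamous males. The groups did not overlap, and the log2 difference was 0.73 (SE 0.11; limma adjusted p = 0.0202). The β chain gene, LanB1, had 2241, 1917 and 1859 in monogamous males, against 1344, 1406 and 1506 in polygamous males. The gap between the groups was narrower for LanB1 than for LanA, with a log2 difference of 0.50 (SE 0.09; limma adjusted p = 0.0392). As for Col4a1 and vkg, population 1 was the highest of the monogamous male libraries for both laminin genes.

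SPARC and Ndg were higher in each monogamous male library too, but did not pass the adjustment over all genes. SPARC had 12923, 12596 and 12366 in monogamous males, against 9241, 9711 and 10082 in polygamous males, with little spread within either group. Its log2 difference was 0.38 (SE 0.13; limma adjusted p = 0.28). The wide error came from the spread shared by the 4 groups, to which the monogamous female library of population 1 adds; without that library the SPARC difference in males was the same and its limma adjusted p was 0.0031, and with only the 6 male libraries in the fit it was 0.0177. Ndg had 929.7, 943 and 968 in monogamous males, against 470.8, 844 and 677 in polygamous males. The polygamous libraries of Ndg were scattered, and its log2 difference of 0.55 (SE 0.20) had a limma adjusted p of 0.31.

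The calls in males rested on few populations. Col4a1 was called whichever of the 12 libraries was left out, with limma adjusted p-values from 0.0015 to 0.0389. Without any one of the 3 polygamous male libraries, Col4a1 was the only one of the 6 called: vkg then had adjusted p-values of 0.0786, 0.0583 and 0.0501 without polygamous male library 1, 2 and 3. LanA lost its call without the same libraries (adjusted p = 0.0917, 0.0882 and 0.0691) and without monogamous male library 1 or 2 (0.0621 and 0.0707), so that Col4a1 and vkg were then the 2 left. LanB1 kept its call only without the monogamous female library of population 1, and its adjusted p reached 0.158 without polygamous male library 1; with upper-quartile scaling it was 0.0552. The log2 differences themselves moved little, from 0.81 to 1.01 for vkg, 0.61 to 0.82 for LanA and 0.41 to 0.55 for LanB1.

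Among females no member was called, as no gene of the table was (0%), and 1866 genes had an unadjusted p under 0.05 by limma. Of the alternatives, edgeR on recovered reads called 0 genes. DESeq2 called 270, with SPARC as the only member (log2 difference 0.51, DESeq2 adjusted p = 0.016). Limma with array weights called 219, again with SPARC as the only member (0.28, adjusted p = 0.0354). Col4a1 and LanB1 were at nearly equal means in the female groups, while SPARC and Ndg had higher means under monogamy. Of the 6 members, 2 had an unadjusted p under 0.05 and were higher, SPARC and Ndg, against 8.5% of tested genes. In 3 members, SPARC, LanA and Ndg, the female groups did not overlap with monogamous females higher, against 8.9% of tested genes. The members' median difference was 0.16 in females, and that of all tested genes was -0.03.

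Col4a1 had 9330, 8222 and 7823 in monogamous females, against 7843, 8468 and 8653 in polygamous females. The groups overlapped, and the log2 difference was 0.02 (SE 0.10; limma adjusted p = 0.91), on the negative side, -0.05, without the monogamous library of population 1. For vkg, monogamous females had 4907, 4276 and 4058, against 4063, 3789 and 3688 in polygamous females. Those groups met at their edges, with a log2 difference of 0.19 (SE 0.11; limma adjusted p = 0.32), or 0.12 without that library.

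LanA had 949, 1059 and 929 in monogamous females, against 891, 892 and 918 in polygamous females, a difference of 0.12 on the log2 scale (SE 0.11; limma adjusted p = 0.49), or 0.14 without the library of population 1. LanB1 had 1499, 1709 and 1642 in monogamous females, against 1554, 1652 and 1673 in polygamous females. Its log2 difference was -0.01 (SE 0.09; limma adjusted p = 0.95), and 0.04 without the library of population 1.

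SPARC had 18752, 13289 and 12209 in monogamous females, against 10738, 10338 and 10253 in polygamous females. The value of population 1 was far above the other two, yet these also lay above all 3 polygamous females. The log2 difference of SPARC was 0.47 (SE 0.13; limma adjusted p = 0.23), and 0.29 (SE 0.05; adjusted p = 0.0908) without that library. Ndg had 2151, 1491 and 1557 in monogamous females, against 1090.5, 1121 and 1400.4 in polygamous females. Here too population 1 was highest, and the log2 difference of 0.51 (SE 0.20; limma adjusted p = 0.27) became 0.35 without it.

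**Figure D2:**
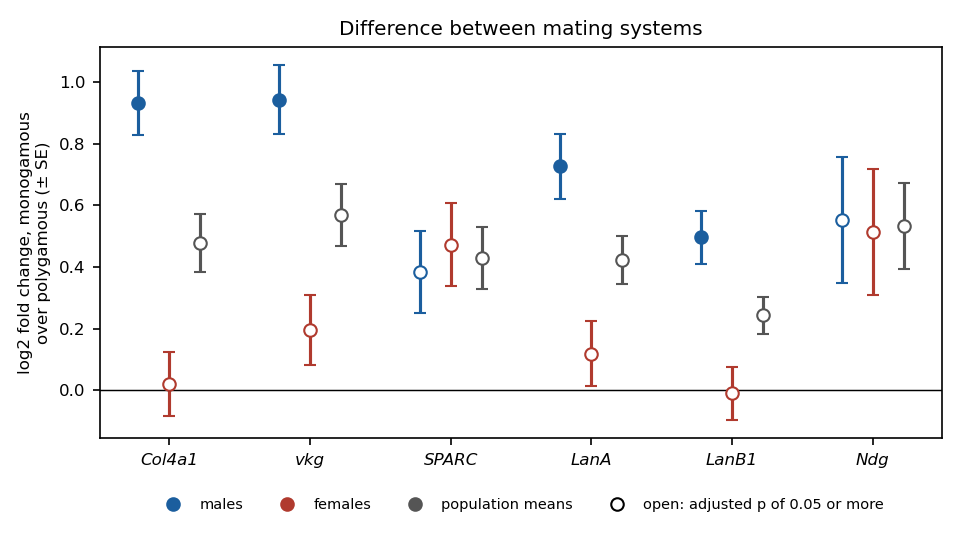
Log2 fold change of monogamous over polygamous heads (vertical axis, ± SE) for each gene in males, in females and over the 6 population means; filled points have a limma adjusted p under 0.05. The filled points are Col4a1, vkg, LanA and LanB1 in males, at 0.50 to 0.94; SPARC stands at 0.38 in males and 0.47 in females, and Ndg at 0.55 and 0.51.

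With each population reduced to the mean of its male and female library, all 6 members were higher in the monogamous populations, with no overlap between the 3 monogamous and 3 polygamous populations; 11.4% of tested genes showed that. The log2 differences were 0.57 (SE 0.10) for vkg, 0.53 (SE 0.14) for Ndg, 0.48 (SE 0.09) for Col4a1, 0.43 (SE 0.10) for SPARC, 0.42 (SE 0.08) for LanA and 0.24 (SE 0.06) for LanB1. All 6 had an unadjusted p under 0.05, against 6.86% of tested genes in that direction. None passed the adjustment over all genes (limma adjusted p from 0.25 to 0.30), and no gene of the table did (0%): 1496 genes had an unadjusted p under 0.05, edgeR called 0 and DESeq2 called 386. DESeq2 called all 6 members here. Without monogamous population 1, male and female library both, the differences ran from 0.23 for LanB1 to 0.46 for vkg and Ndg, and none passed (limma adjusted p from 0.10 to 0.23).

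The next question was whether the sexes differ. Scaling matters for it: the deposited values give each library nearly the same total, and the median gene was 0.13 higher in males on the log2 scale. Rescaling by trimmed mean of M-values (TMM) lowered that median by 0.11, and the calls over all genes then split into 838 higher and 1524 lower in males, against 2139 and 980 on the deposited scale. Over all 6 populations Ndg was lower in males and vkg higher. These were 1 of 6 members called lower and 1 called higher, against 9.27% and 20.2% of all tested genes, so the members' share of calls was near the background.

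Ndg was the only member with a sex difference called in both mating systems, lower in males each time. Every male library, from 470.8 to 968, lay below every female library, from 1090.5 to 2151, which was so for 4.99% of tested genes. The male minus female difference was -0.87 (SE 0.14; limma adjusted p = 0.0018) over all populations, and under TMM it stayed called. Within mating systems it was -0.85 (adjusted p = 0.0164) under monogamy and -0.89 (adjusted p = 0.0286) under polygamy. Without the monogamous female library of population 1, the overall value was -0.79. For vkg the difference over all populations was 0.31 (SE 0.08; limma adjusted p = 0.0161), but the sexes overlapped, and under TMM it was 0.19 with an adjusted p of 0.11. The overall differences of Col4a1 (0.09) and LanB1 (0.06) did not pass and turned to -0.03 and -0.06 under TMM; those of SPARC (-0.15) and LanA (-0.10) did not pass either.

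Under monogamy, 3 members were called higher in males, Col4a1, vkg and LanB1, against 14.2% of tested genes, and Ndg was called lower, against 7.93%. Col4a1 averaged 12329 ± 1238 in monogamous males and 8458 ± 781 in monogamous females (SD, n = 3 each), a log2 difference of 0.54 (SE 0.10, limma adjusted p = 0.0062). The sexes did not overlap, and 31.8% of tested genes lay higher in males without overlap. Likewise vkg averaged 7120.2 ± 1177 in monogamous males and 4414 ± 441 in monogamous females, a difference of 0.68 (SE 0.11; limma adjusted p = 0.0033). LanB1 averaged 2006 ± 206 in males and 1617 ± 107 in females (difference 0.31, SE 0.09; limma adjusted p = 0.0313). That call of LanB1 was lost under TMM (0.19; adjusted p = 0.16), with the population as a block (adjusted p = 0.0677) and without monogamous male library 1 or 2. Col4a1 lost its call with upper-quartile scaling (0.34; adjusted p = 0.11), and with only the 6 monogamous libraries in the fit Ndg alone was called (adjusted p = 0.0612 for Col4a1 and 0.0573 for vkg). Ndg also lost its call without either of those libraries, with adjusted p-values up to 0.0559. LanA, at 0.20, and SPARC, at -0.20, did not pass; the SPARC value was -0.01 without the monogamous female library of population 1. Without that library LanA was at 0.18, and the other differences were 0.62 for Col4a1, 0.76 for vkg, 0.25 for LanB1 and -0.69 for Ndg, all 4 called (limma adjusted p from 0.00067 to 0.0329).

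Under polygamy all 6 members had negative male minus female differences, and 30.2% of tested genes did. LanA and Ndg were called lower in males, 2 of 6 members against 3.06% of tested genes. LanA averaged 679 ± 45.9 in polygamous males and 900.2 ± 15.1 in polygamous females (SD, n = 3 each), a log2 difference of -0.41 (SE 0.11; limma adjusted p = 0.0435). Col4a1 averaged 6451 ± 575 in polygamous males and 8321 ± 425 in polygamous females, and its difference of -0.37 (SE 0.10) had a limma adjusted p of 0.0568. Its sexes again did not overlap, and 9.92% of tested genes lay lower in males without overlap. With the population as a block Col4a1 was called (adjusted p = 0.0339) and LanA was not (0.066); under TMM Col4a1 was at -0.48 and called. LanB1 was at -0.20 (adjusted p = 0.21), SPARC at -0.11 and vkg at -0.07. LanA and Ndg both lost their calls without monogamous male library 2, polygamous male library 1 or 3, or any one polygamous female library; LanA alone lost it without polygamous male library 2 or monogamous female library 3. Their adjusted p-values over the 12 omissions ran up to 0.137 for LanA and 0.0896 for Ndg.

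Setting these sex differences side by side by population shows the opposite signs directly. For Col4a1 the male library was above the female library of its own population by 0.56, 0.47 and 0.60 in monogamous populations 1 to 3, and the polygamous populations gave -0.44, -0.32 and -0.35. For vkg the monogamous populations gave 0.79, 0.59 and 0.66, and the polygamous ones -0.15, -0.02 and -0.03. LanA gave 0.48, 0.04 and 0.09 in monogamous populations, against -0.51, -0.35 and -0.37 in polygamous ones. LanB1 gave 0.58, 0.17 and 0.18 in monogamous populations, against -0.21, -0.23 and -0.15. On the deposited scale all 3 monogamous populations were thus positive and all 3 polygamous ones negative in 4 of 6 members, against 1.29% of tested genes, although the polygamous values of vkg were close to 0 and, for the laminins, population 1 carried much of the monogamous value. After rescaling this held for 3 members, Col4a1, vkg and LanB1, against 1.84% of tested genes under TMM, 1.15% with upper-quartile scaling and 1.69% with DESeq2 size factors. LanA no longer split: under TMM its monogamous populations gave 0.39, -0.07 and -0.06. SPARC, at -0.54, -0.08 and 0.02 in monogamous populations and -0.22, -0.09 and -0.02 in polygamous ones, did not split in this way. Ndg was negative in all 6 populations.

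**Figure D3:**
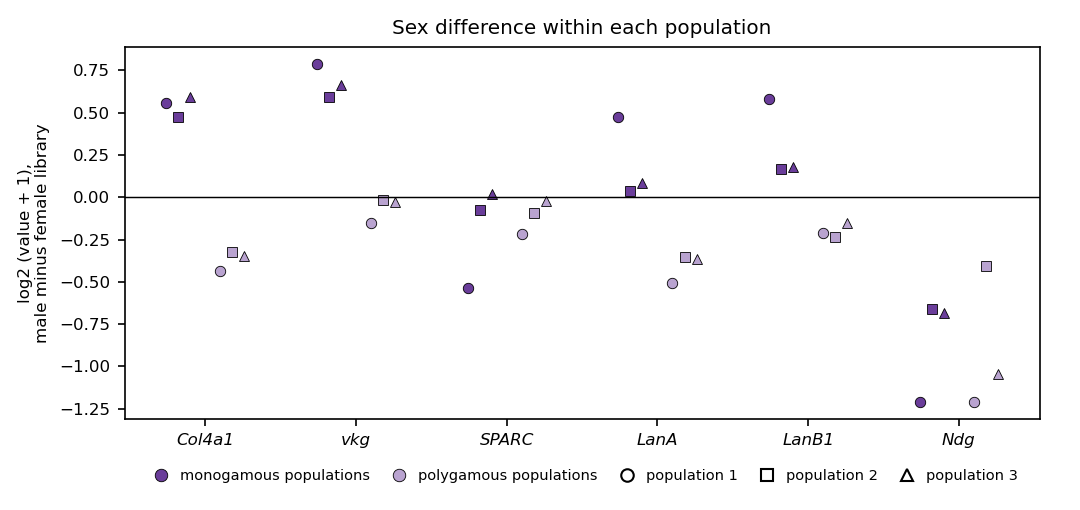
Difference between the male and the female library of the same population on the log2(value + 1) scale (vertical axis) for the 6 genes; dark points are the 3 monogamous and light points the 3 polygamous populations. For Col4a1 the dark points lie at 0.47 to 0.60 and the light points at -0.44 to -0.32, and for Ndg all 6 points are below 0.

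The test of that contrast, the interaction of sex and mating system, called no gene of the table (0%); 576 genes had an unadjusted p under 0.05, edgeR called 0 and DESeq2 called 63. Of the 6 members, 4 had an unadjusted p under 0.05 and a higher male minus female difference under monogamy, against 3.06% of tested genes. Col4a1 had the 7th smallest p of the table, at a difference of 0.91 (SE 0.15, limma adjusted p = 0.10). The p of vkg was the 38th smallest, at a difference of 0.75 (SE 0.16, limma adjusted p = 0.22). LanA was at 0.61 (SE 0.15; adjusted p = 0.36) and LanB1 at 0.51 (SE 0.12; adjusted p = 0.35). SPARC and Ndg were near 0, at -0.09 (SE 0.19) and 0.04 (SE 0.29). DESeq2 on recovered reads called Col4a1 (adjusted p = 5.6e-06) and vkg (adjusted p = 0.0047), and limma with array weights called the same pair (0.0076 and 0.0192). These were 2 of 10 alternatives other than leaving out a library, and the rest called neither gene. Among the rest, limma with the population as a block called 9 genes of the table and 0 of the members. Without the monogamous female library of population 1 the value of Col4a1 was 0.99, with a limma adjusted p of 0.0436. The others were then 0.83 for vkg, 0.59 for LanA, 0.45 for LanB1, 0.10 for SPARC and 0.20 for Ndg, and none of these 5 passed.

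Collagen IV chains, and laminin chains, could be compared with each other within a library, where scaling has no effect. The laminin ratio used, LanB1 per LanA, leaves out wb, another laminin α chain gene. The values of wb averaged 797 in monogamous males, 808 in polygamous males, 835 in monogamous females and 910 in polygamous females. The laminin ratio is therefore not that of β to all α chains. The level of Col4a1 per kilobase was 1.84 ± 0.12 times that of vkg in monogamous males and 1.85 ± 0.16 times in polygamous males (SD, n = 3 each); in monogamous females it was 2.02 ± 0.01 times and in polygamous females 2.29 ± 0.23 times. Between the male groups, whose levels of both chains differed by more than 1.9-fold, the log2 difference of the ratio was -0.01 (exact permutation p = 0.9). The ratio was lower in males than in females of the same population in 6 of 6 populations, by a log2 difference of -0.22 (SD 0.10). An exact two-sided sign-flip permutation test gave p = 0.0312, the smallest that 6 populations allow, and 0.0938 after Benjamini-Hochberg adjustment over the 6 ratio tests made. LanB1 per LanA was 3.31 ± 0.18 in monogamous males and 3.89 ± 0.13 in polygamous males, without overlap (log2 difference -0.23). Monogamous females stood at 3.08 ± 0.19 and polygamous females at 3.36 ± 0.10. This laminin ratio was higher in males in 6 of 6 populations, by 0.16 on the log2 scale (SD 0.08; exact permutation p = 0.0312, adjusted 0.0938). The comparison of 3 with 3 libraries cannot give a p under 0.1, which was reached by the laminin ratio in males and by the collagen ratio in females (exact permutation tests, adjusted p = 0.15 each). In females the collagen ratio ran from 2.01 to 2.03 under monogamy, against 2.04 to 2.48 under polygamy, a log2 difference of -0.17. The laminin ratio in females differed by -0.13 (exact permutation p = 0.2). Without the monogamous female library of population 1 these female differences were -0.17 and -0.10, and the male minus female differences over 5 populations -0.22 and 0.17.

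Across the 12 libraries Col4a1, vkg, LanA and LanB1 varied together, and SPARC and Ndg varied apart from them. Pearson's r of log2 values was 0.92 between Col4a1 and vkg, 0.92 between Col4a1 and LanB1, 0.91 between LanA and LanB1 and 0.90 between Col4a1 and LanA. Ndg correlated most with SPARC, at 0.72, and least with vkg, at 0.07; over the 11 libraries without the monogamous female library of population 1 its highest r was 0.59 with LanA, with SPARC at 0.56. Much of the SPARC pattern lay in the monogamous female library of population 1: over the other 11 libraries the r of SPARC with LanA was 0.89, against 0.62 over all 12, and with LanB1 0.82, against 0.34. These are descriptions over libraries that share the 4 groups, populations and scaling, so a group difference alone gives a correlation.

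**Figure D4:**
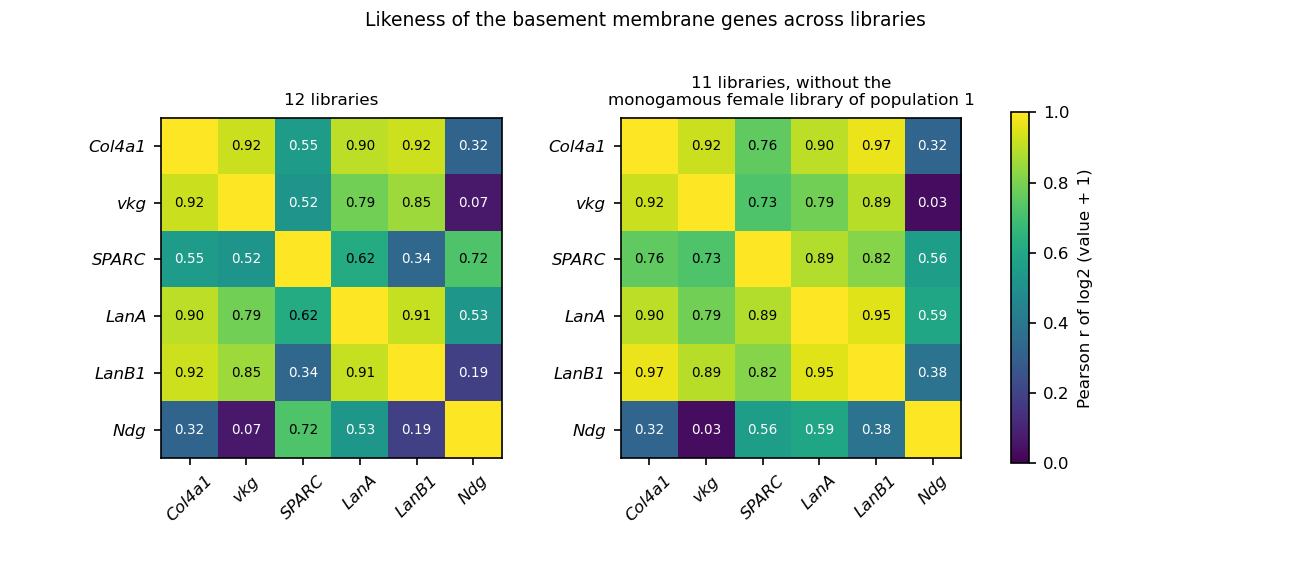
Pearson's r between the 6 genes on the log2(value + 1) scale, over all 12 libraries (left) and over 11, without the monogamous female library of population 1 (right); colour runs from 0 to 1. Col4a1, vkg, LanA and LanB1 form a block at 0.79 or more in both panels, and SPARC moves toward it in the right panel.

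Of the 10567 other tested genes, those most like each member over 12 libraries often included another member. Inx2, a gap junction innexin, was first for Col4a1 (r = 0.93) and for LanB1 (0.95). NimC1, a phagocytosis receptor of hemocytes, was second for Col4a1 (0.92) and for LanA (0.92), and CG4950 was first for LanA (0.95). LanB1 ranked 3rd for Col4a1 and for LanA, and Col4a1 ranked 3rd for LanB1. Genes most like vkg were SLC22A and PLCXD, each at 0.97, with Col4a1 at rank 22. SPARC was most like ClpX (0.96), with mEFTu2 and AMPKalpha next (0.95 each). Ndg was most like a gene without a symbol (0.94), then CG2003 (0.94) and Mlp84B, a muscle LIM protein gene (0.93). Over 11 libraries the first gene for Col4a1 was LanB1 (0.97), the first for LanA was LanB1 (0.95), and the first for SPARC was Hml (0.98), a hemocyte clotting factor gene. CG9095 (0.97) and CG4950 (0.96) came next for SPARC, so ClpX, mEFTu2 and AMPKalpha were no longer its nearest genes.

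Other genes of the matrix moved with the members only in part. Of 9 other matrix protein genes, 2 were called higher in monogamous than polygamous males, against 0.539% of all tested genes, and 0 lower, with a list median of 0.22. Ppn, which encodes the matrix glycoprotein papilin, averaged 5388 ± 345 in monogamous males and 3221 ± 286 in polygamous males, a log2 difference of 0.74 (SE 0.11; limma adjusted p = 0.0202). The other was prc, the gene of the collagen-like protein pericardin, at 197 ± 12.1 in monogamous males and 101 ± 2.22 in polygamous males (difference 0.95, SE 0.15; limma adjusted p = 0.0324). In the same list wb, another laminin α chain gene, averaged 797 ± 60.0 in monogamous males and 808 ± 83.8 in polygamous males. Its log2 difference was -0.02 (SE 0.12, limma adjusted p = 0.99), unlike that of LanA. None of 10 genes of collagen processing and secretion was called in males (list median 0.03). Among these Loxl2, a lysyl oxidase gene, had the smallest p, with a log2 difference of 0.48 (limma adjusted p = 0.10). None of 12 receptor and cell-surface genes was called either (list median 0.00), with dlp, a glypican gene, at 0.28. Of 5 protease and inhibitor genes 0 were called, and AdamTS-B, a secreted metalloprotease gene, stood at 0.32 (SE 0.06; adjusted p = 0.053). In females, over population means and in the interaction, no gene of these 4 lists was called.

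Between the sexes the same lists held calls in both directions. Over all populations Pxn, the peroxidasin that cross-links collagen IV, was higher in males at 0.58 (SE 0.06; limma adjusted p = 9.1e-05), and Tsp, a thrombospondin gene, at 0.25. Glt, the glutactin gene, was lower in males at -0.87 (SE 0.11; limma adjusted p = 0.00043). PH4alphaEFB, a collagen prolyl hydroxylase gene, was called higher at 0.28, and Plod, the lysyl hydroxylase gene, called lower at -0.42 (SE 0.04; adjusted p = 6.8e-05). Receptor genes called higher were 4 of 12: mew, an integrin α subunit gene, dally and dlp, both glypican genes, and Ddr, a collagen receptor gene, at 0.27 to 0.60. Mmp2, Timp and stl were the 3 of 5 protease and inhibitor genes called higher, at 0.30 to 0.49. These counts are on the deposited scale, on which 20.2% of tested genes were called higher in males. They include the monogamous female library of population 1, whose part in these calls was not tested. Ddr values were scattered among monogamous females, at 684 ± 284, whereas polygamous females had 819 ± 65.5. Within the polygamous populations alone, the genes of these lists called higher in males were Pxn, mew, Timp and stl. Glt and Plod were called lower there.

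Some marker genes of cell types that make or carry basement membrane differed too. Of 11 hemocyte markers, 2 were called higher in monogamous than polygamous males, against 0.539% of all tested genes, and 0 lower, with a list median of 0.17. The markers went different ways: PPO2, a prophenoloxidase gene of crystal cells, was at -0.79, srp, lz, crq, Pvr and gcm lay between -0.05 and 0.17, He was at 0.54, eater at 0.82 and NimC4, another Nimrod receptor gene, at 1.26, none of them called. NimC1 averaged 759 ± 95.0 in monogamous males and 331 ± 39.9 in polygamous males (difference 1.19, SE 0.12; limma adjusted p = 0.0049). Hml averaged 2479 ± 198 in monogamous males and 1365 ± 161 in polygamous males (0.86, SE 0.15; adjusted p = 0.0392). The 11 hemocyte markers summed to 21842 to 23642 in monogamous males, against 19673 to 20864 in polygamous males. In females 7 of the 11 hemocyte markers were positive and 0 were called, with a list median of 0.07. There NimC1 and Hml had differences of 0.42 and 0.40 (limma adjusted p = 0.23 and 0.26). Going the other way, NimC4 averaged 189 in monogamous and 210 in polygamous females, and PPO2 1263 and 1686. The 6 members ran from -0.01 for LanB1 and 0.02 for Col4a1 to 0.47 for SPARC and 0.51 for Ndg in females.

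Of 11 glia markers, 10 were positive in males, with a list median of 0.34, and 3 were called higher, against 0.539% of all tested genes. The called genes were the GABA transporter gene Gat at 0.77, the sodium pump subunit gene nrv2 at 0.52 and the blood-brain barrier transporter gene Mdr65 at 0.36. Among those not called, alrm was at 0.81 and bdl at 0.57 (limma adjusted p = 0.054 and 0.085). Gs2 was at 0.34, Eaat1 at 0.29, moody at 0.23, Indy at 0.20, repo at 0.10 (limma adjusted p = 0.77) and wrapper at -0.06. The 11 glia markers summed to 243816 to 278949 in monogamous males, against 190708 to 201469 in polygamous males. The largest part of that sum was Gs2, at 128757 ± 11340 in monogamous and 101550 ± 2883 in polygamous males (limma adjusted p = 0.20). None of 10 fat body, 10 muscle, 10 neuron or 8 eye markers was called in males, and the medians of these lists were 0.02, 0.01, -0.03 and 0.07. The fat body sum ran from 176178 to 182106 in monogamous males, against 126707 to 171700 in polygamous males. Most of that sum was apolpp, at 146136 ± 5860 in monogamous and 107614 ± 16576 in polygamous males (log2 difference 0.45, limma adjusted p = 0.67). Of the 10 fat body markers 5 were positive. The others were to at -0.70 (limma adjusted p = 0.074), Yp2 at -0.37, Lsp1gamma at -0.33, Yp1 at -0.30 and Yp3 at -0.16. No marker in these lists was at 0 in any library. The part of hemocyte, glia or fat body content in the differences of the basement membrane genes was not tested.

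**Figure D5:**
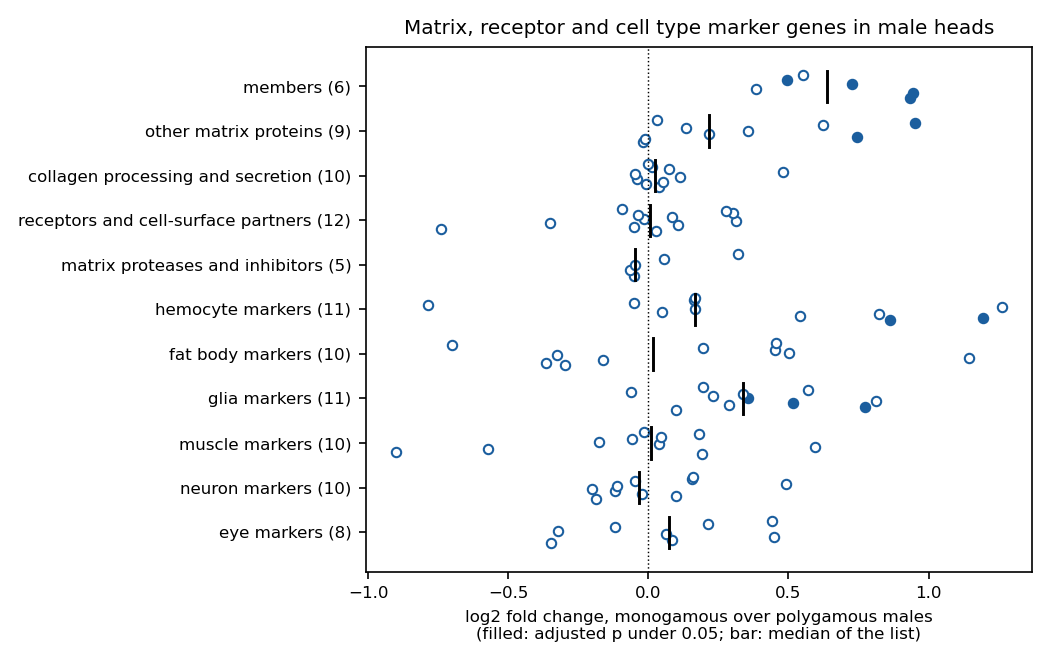
Log2 fold change of monogamous over polygamous male heads (horizontal axis) for the 6 basement membrane genes ("members") and the genes of 10 other lists, with the number tested in brackets; filled points have a limma adjusted p under 0.05 and bars are list medians. The members' median is 0.64, and filled points outside the members are 2 other matrix, 2 hemocyte and 3 glia genes.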

How the data were processed

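Fly heads were profiled by mRNA sequencing in 12 libraries, with RNAzol extraction and an Illumina mRNA-Seq kit per the labels' protocols. TopHat2, HTSeq, DESeq2 and build BDGP5 are named in the submitters' processing notes, without versions or settings. Values were deposited as a signal for each gene, for which the authors had multiplied a library's reads by 1 factor, so that column totals run from 45916924 to 45943793. The column of the monogamous females of population 1 holds whole counts as deposited, since its factor is 1. Equal totals mean that abundant genes differing between groups shift all others. Dividing each column by the value of 1 read gave whole numbers for 100% of values under 2000 in every library, within 0.1 reads; an independent check of this step succeeded for some columns and not for others, so the read-based tests (edgeR 4.0.16, DESeq2 1.42.0) are alternatives only. Those recovered totals are the depths given.

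Identifiers were matched to a reference gene table: 10781 had a symbol and 455 had none. Values were tested as log2(value + 1), for genes with a mean of at least 10, with limma 3.58.1 (eBayes with trend) in R 4.3.3, with 1 mean per group, a spread shared by the 4 groups and Benjamini-Hochberg adjustment over 10568 genes. The mating difference over both sexes used 6 population means. Fold changes on this scale understate the change of low genes. Scripts were tested on simulated data. Alternatives were other pseudocounts (0.5 and 10), no filter, other scalings, count models, array weights, fits to the compared groups alone, replicate blocks and each library left out. The rescaled sign split by population and the ratios without monogamous female library 1 were added after seeing the data.

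The members and lists were chosen with earlier results of these data known. All members are named in each comparison. Of other lists, the genes called, or else up to 3 with the smallest p, were eligible. Added after their values were seen were wb, the remaining hemocyte markers and further fat body and glia markers in males, and NimC4 and PPO2 in females. Likeness is the 3 genes with the highest Pearson's r. Male and female libraries of a number come from 1 population per the labels; their deviations correlated at 0.09 to 0.47, whereas numbers across mating systems name different populations (-0.12 to 0.15).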

Additional observations from a re-analysis of the deposited data

Results flagged for a closer look

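On the deposited scale the male minus female difference was positive in all 3 monogamous populations and negative in all 3 polygamous populations in 4 of 6 genes, against 1.29% of tested genes. After TMM, upper-quartile or DESeq2 size factor rescaling this held for 3, and LanA no longer split (0.39, -0.07 and -0.06 in monogamous populations under TMM). The difference between the mating systems in this sex difference was 0.913 for Col4a1, 0.749 for vkg, 0.608 for LanA and 0.506 for LanB1 on the log2 scale. By limma's interaction term none of the 4 passed an adjusted p of 0.05 (0.10 for Col4a1, 0.22 for vkg, 0.36 for LanA and 0.35 for LanB1), whereas DESeq2 on recovered reads called Col4a1 and vkg. The part of hemocyte or glia content in them was not tested.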

How the results depend on the processing

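Of 468 values of single genes with a library or population left out, 418 kept their direction and their side of the threshold, 37 lost a call, 3 gained one and 10 changed sign; of 444 under the other alternatives these numbers were 372, 21, 29 and 22. Every change of sign was in a value that had not passed. The number of members called with 1 library left out ranged from 1 to 5 for the mating difference in males and 2 to 4 for the sex difference under monogamy. It ranged from 0 to 3 under polygamy and 0 to 1 for the interaction. Over all genes, calls under monogamy ran from 667 higher and 488 lower (without monogamous male library 1) to 3097 and 927 (without monogamous female library 1). Under polygamy they ran from 134 and 136 (without polygamous female library 2) to 2874 and 780 (without monogamous female library 1). In the interaction they reached 7 and 2 without monogamous female library 1. A lone library in a fit was assumed to vary like the rest.

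A replicate block by library number left 0 of 6 members called in males; those numbers name different populations. The population block for the sex differences left 2 members called over all populations, 3 under monogamy and 2 under polygamy, and 0 in the interaction. Over all genes that block called 2081 higher and 1057 lower, 1327 and 842, 378 and 306, and 9 and 0, in that order. DESeq2 on reads called 1 member in females, 6 over population means and 2 in the interaction, against 270, 386 and 63 of all 10568 tested genes. Array weights called 1, 5 and 2 members there, against 219, 544 and 81 of all tested genes. For the sex difference under polygamy array weights called 4 members, against 4019 of all tested genes. Some weight fits did not converge fully. Only 1 member was called in the sex difference over all populations under TMM, upper-quartile, DESeq2 size factors and edgeR, against 2362, 1814, 2389 and 2395 of all tested genes. Under monogamy 2 were called with upper-quartile scaling, against 1425 of all tested genes, and 1 when only the compared libraries were fitted, against 534. The fit to the compared libraries was not made for the sex difference over all populations, population mean and interaction results, which use all groups. The cause was not tested. Chosen after seeing the data, a rescaling of the sign split by population left 3 of 4 members split. Over all genes, edgeR called 100 higher and 14 lower in males, and DESeq2 314 and 86, against 57 and 11 by limma on deposited values. In the same comparison array weights gave 907 and 906, the male libraries alone 263 and 160, the replicate block 6 and 0, and leaving out 1 library from 6 and 0 (polygamous male library 1) to 488 and 373 (monogamous female library 1).

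Signs turned as follows on the log2 scale. In females Col4a1 was -0.0685 with array weights and -0.0519 to 0.0752 with a library left out; LanB1 was 0.0145 (TMM), 0.0709 (upper quartile), 0.0178 (DESeq2 size factors), 0.0108 (edgeR), 0.0136 (DESeq2) and 0.0256 (array weights), and -0.0514 to 0.0433 with a library left out. For the sex difference over all populations Col4a1 was -0.0271 (TMM), -0.0625 (upper quartile), -0.0128 (DESeq2 size factors), -0.0228 (edgeR) and -0.00829 (DESeq2), and LanB1 -0.0585, -0.0939, -0.0442, -0.0551 and -0.0407 in that order. LanA under monogamy was -2.8e-06 with upper-quartile scaling. In the interaction SPARC was 0.0881 with array weights and -0.212 to 0.0976 with a library left out; Ndg was -0.066 (upper quartile), -0.00799 (edgeR) and -0.0128 (DESeq2), and -0.191 to 0.229 with a library left out. Relative to deposited values, the median gene's sex difference moved by -0.148 with upper-quartile scaling and -0.0989 with DESeq2 size factors.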
